A study of Mus musculus with 12 samples.

Results

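The adenylyl cyclases and phosphodiesterases described here are 10 genes of the cAMP pathway in MIN6 cells, an insulin-secreting line from a mouse insulinoma. They were taken by gene name from the 54022 genes of the deposited tables: the adenylyl cyclases Adcy5, Adcy6, Adcy8 and Adcy9, and the phosphodiesterases Pde1c, Pde3b, Pde4b, Pde4d, Pde8b and Pde10a. RNA was sequenced from wild-type MIN6 cells that received either vehicle or TMAO (trimethylamine N-oxide, 100 nM, 18 h), each with low or high glucose. Per the study's scheme for the RNA libraries the cells were fasted for 1 h before the glucose stimulation. The insulin secretion assay of the study gave glucose for 1 h, and the duration for the RNA libraries is not given in the sources used here. Each of the 4 conditions had 3 cultures, 12 libraries in all, from 1 tumour-derived line, so vehicle and TMAO cells share the background of that line. The libraries held between 16793162 and 22340542 counted fragments. All 12 beta-cell markers examined, among them Ins1, Ins2, Pdx1 and Nkx6-1, lay above 1 FPKM in every condition. Their summed level was 41663 to 47383 FPKM at low and 46116 to 49276 FPKM at high glucose, and 4 of them (Mafa, Nkx2-2, Iapp and Slc2a2) were called higher at high glucose, averaged over treatments, where 4.13% of all tested genes were called higher. Nkx6-1 had a log2 fold change of -0.12 in that comparison (edgeR adjusted p = 0.112). Of the 13 markers of non-endocrine cells, Ptprc, Adgre1, Col3a1, Pdgfrb, Krt19 and Sox9 were listed at 0 in all 12 libraries. Cd68, a macrophage marker, was present in every library at 2.88 to 4.84 FPKM, and Cela1 and Col1a1 had mean levels of 0.962 and 0.403 FPKM. The summed level of all 13 was 4.24 to 4.97 FPKM at low glucose with vehicle, 5.27 to 6.03 at low glucose with TMAO, 5.48 to 6.26 at high glucose with vehicle and 5.49 to 6.04 at high glucose with TMAO, so low glucose with vehicle lay below the other groups without overlap. Cd68 had a log2 fold change of 0.46 for glucose with vehicle (edgeR adjusted p = 0.0743). The 7 markers of other islet cells summed to 201 to 219 FPKM at low and 224 to 230 FPKM at high glucose, nearly all of it Gcg, while Hhex was at 0 in all 12 libraries. Gcg was itself called higher at high glucose (log2 fold change 0.11), and the part of these marker shifts in the glucose and TMAO differences was not tested.

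In β cells, adenylyl cyclases make cAMP from ATP when Gs-coupled receptors such as the GLP-1 receptor are engaged, and some isoforms also respond to calcium. cAMP acts through protein kinase A and Epac to amplify glucose-stimulated insulin secretion and, through CREB, switches on a set of early-response genes. Phosphodiesterases end the signal by hydrolysing cAMP, and their isoforms differ in substrate, in calcium dependence and in place within the cell.

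Transcript levels were compared between genes as FPKM, counts divided by gene length and by the library total. Adcy6 was the most abundant member in every condition, at 28.1 ± 1.60 FPKM (SD, n = 3) in low glucose with vehicle. Adcy9 followed at 23.9 ± 0.262 FPKM and Pde1c at 22.2 ± 0.625 FPKM in the same condition. Adcy9 and Pde1c overlapped in the other 3 conditions, so their order was not separable there. Pde3b (15.4 ± 0.991 FPKM) and Pde10a (14.8 ± 0.219 FPKM) came next and overlapped each other at low glucose. Pde4b stood at 6.33 ± 0.244 FPKM and Pde4d at 3.11 ± 0.166 FPKM. The last 3 members were low: over the 12 libraries Pde8b averaged 0.360 FPKM, Adcy8 0.291 FPKM and Adcy5 0.117 FPKM. Pde8b and Adcy8 overlapped in every condition, whereas Adcy5 lay under both. This order depends on the gene length used, since the length in the deposited table covers the exons of all transcripts and exceeds the longest annotated transcript 2.29-fold for Pde1c, 2.45-fold for Pde4b and 2.85-fold for Pde4d. Scaled to the longest transcript instead, Pde1c was the most abundant member in all 4 conditions (50.9 ± 1.43 FPKM in low glucose with vehicle).

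All 10 members passed the filter on low counts and were tested with the 16222 genes that did. In each comparison of high with low glucose, 3 of the 10 members changed, all of them phosphodiesterases: Pde4b and Pde4d rose and Pde10a fell. Over all tested genes, 3.3% were called in vehicle-treated cells (1.99% higher and 1.31% lower at high glucose) and 3.64% in TMAO-treated cells (2% higher and 1.64% lower), by edgeR's quasi-likelihood test at a Benjamini-Hochberg adjusted p under 0.05. When the glucose difference was averaged over treatments, 8.19% were called, 4.13% higher and 4.06% lower. At an unadjusted p under 0.05 the members numbered 3 with vehicle, 4 with TMAO and 4 on average, where 13%, 14.7% and 20.1% of all tested genes had such a p, and the added member was Adcy9. The glucose groups did not overlap for 4 members with vehicle, for 3 with TMAO and for 3 over all 12 libraries, against 18.8%, 18.4% and 4.94% of all tested genes. The median log2 fold change of the 10 members, averaged over treatments, was 0.014, beside 0.0011 over all tested genes. The p-values measure the spread between these cultures of 1 line, and in bulk RNA fewer cells with a transcript cannot be told apart from less of it per cell.

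**Figure D1:**
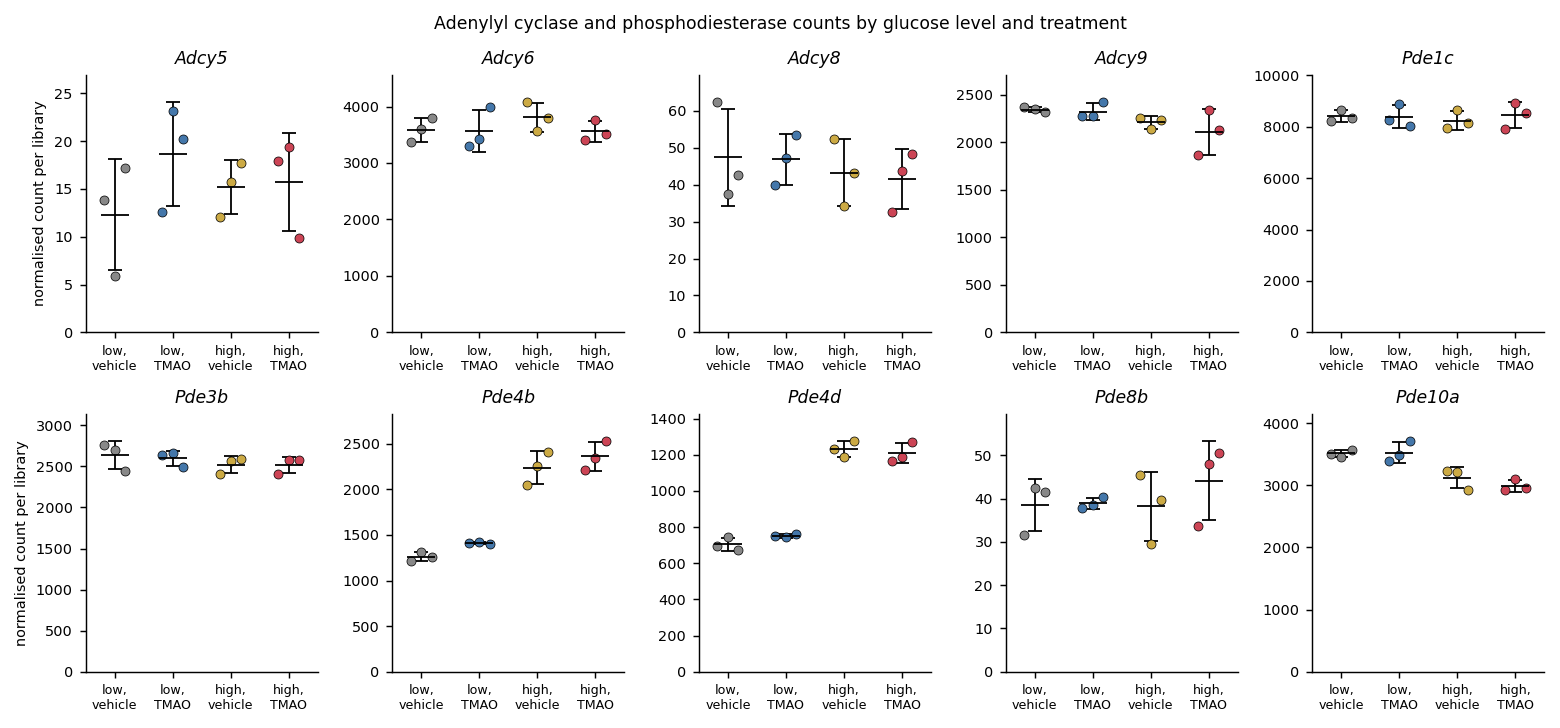
Normalised counts per library (y axes, starting at 0) of the 10 members for low or high glucose with vehicle or TMAO (x axes); points are libraries, bars are the mean and SD of 3 libraries. Pde4b and Pde4d were higher in all 6 high-glucose libraries than in any low-glucose library, and Pde10a was lower in all 6.

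Pde4b (ENSMUSG00000028525, plus strand, mm10 chr4:102087543-102607259) and Pde4d (ENSMUSG00000021699, plus strand, mm10 chr13:108449948-109953461) encode cAMP-specific phosphodiesterases of the rolipram-sensitive PDE4 family. Each gene has several alternative start sites. RefSeq promoter windows on GRCm38.p6, the 250 bases before an annotated start, were found for 7 of the 10 members, 17 windows in all. The first window of Pde4b and the window of Pde4d are shown because these genes rose together, and the first window of Pde10a because it fell. Capitals mark a match to one of the searched motifs, and a sequence without capitals holds none of them.
Pde4b, plus strand, chr4:102421305-102421554: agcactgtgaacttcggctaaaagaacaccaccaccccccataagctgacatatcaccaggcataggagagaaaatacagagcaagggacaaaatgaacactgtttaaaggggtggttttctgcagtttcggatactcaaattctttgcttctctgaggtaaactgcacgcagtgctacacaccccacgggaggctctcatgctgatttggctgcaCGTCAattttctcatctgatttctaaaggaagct
Pde4d, plus strand, chr13:108653927-108654176: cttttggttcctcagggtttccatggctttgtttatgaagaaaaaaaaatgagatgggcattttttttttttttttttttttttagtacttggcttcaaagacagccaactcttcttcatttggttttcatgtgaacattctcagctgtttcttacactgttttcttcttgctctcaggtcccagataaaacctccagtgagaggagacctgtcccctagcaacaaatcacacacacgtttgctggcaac
Pde10a, plus strand, chr17:8801495-8801744: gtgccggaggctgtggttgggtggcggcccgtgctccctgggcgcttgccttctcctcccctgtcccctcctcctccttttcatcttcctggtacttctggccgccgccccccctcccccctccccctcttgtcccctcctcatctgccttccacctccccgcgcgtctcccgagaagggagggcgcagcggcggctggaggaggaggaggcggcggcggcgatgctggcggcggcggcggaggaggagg
The motifs, read on both strands, were the cAMP response element TGACGTCA, its shorter form TGACG (which lies within the longer one), the AP-1 site TGANTCA, the EGR site GCGTGGGCG and the CArG box bound by serum response factor. The printed Pde4b window, the first of 4, held the shorter form of the cAMP response element, read as CGTCA, 34 bases before the start. The other windows of Pde4b held none of the motifs. Of the 32851 promoters in the table, 17.8% held this shorter form, 1.55% the full element, 6.75% the AP-1 site, 0.536% the EGR site and 1.47% the CArG box. Elsewhere among the members, Adcy9 had TGACG 24 bases before its start, and the first window of Pde1c had TGACTCA 246 bases before its start. The printed starts lie 334012 bases (Pde4b), 204229 bases (Pde4d) and 276373 bases (Pde10a) inside the gene, counted from its first annotated base, and counts per gene do not tell which start was used.

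Pde4b rose with glucose under either treatment. Its normalised counts in low glucose with vehicle were 1211, 1309 and 1261, and in high glucose with vehicle 2045, 2259 and 2406. With TMAO they were 1407, 1423 and 1401 in low and 2213, 2349 and 2526 in high glucose. All 6 high-glucose libraries were above all 6 low-glucose libraries. The log2 fold change was 0.83 with vehicle (SE 0.058, adjusted p = 4.56e-12) and 0.74 with TMAO (SE 0.057, adjusted p = 4.85e-11). Averaged over treatments it was 0.79 (95% confidence interval 0.70 to 0.87), which is 1.72-fold. By p-value Pde4b ranked 26 of 16222 genes in this averaged comparison, although 201 genes had a larger fold rise.

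Pde4d followed a similar course at about 1.67-fold. In low glucose its normalised counts were 696.6, 744.7 and 671.9 with vehicle and 752.0, 742.8 and 763.4 with TMAO. In high glucose they were 1231, 1187 and 1274 with vehicle and 1168, 1190 and 1273 with TMAO. No low-glucose library reached the lowest high-glucose one. The log2 fold change was 0.80 with vehicle (SE 0.058, adjusted p = 1.20e-11) and 0.68 with TMAO (SE 0.058, adjusted p = 4.54e-10), and it was 0.74 (95% confidence interval 0.66 to 0.83) on average. Pde4d ranked 31 by p-value.

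Pde10a (ENSMUSG00000023868, plus strand, mm10 chr17:8525372-8986648), which hydrolyses both cAMP and cGMP, fell modestly at high glucose. Its normalised counts in low glucose were 3503, 3462 and 3573 with vehicle and 3384, 3484 and 3704 with TMAO. In high glucose they were 3228, 3208 and 2925 with vehicle and 2927, 3102 and 2948 with TMAO. The 6 high-glucose libraries all lay under the 6 low-glucose ones. The log2 fold change was -0.17 with vehicle (SE 0.048, adjusted p = 0.0418) and -0.24 with TMAO (SE 0.048, adjusted p = 0.00252). Averaged over treatments it was -0.20 (SE 0.034, adjusted p = 8.85e-05), or 0.869-fold. The call with vehicle was lost when any 1 of low-glucose replicates 1, 2 or 3 or of high-glucose replicates 2 or 3 was left out, with adjusted p between 0.0578 and 0.333, and the log2 fold change then lay between -0.19 and -0.13. With limma on log2(FPKM + 1), the calls with vehicle (adjusted p = 0.229) and with TMAO (adjusted p = 0.0762) were also lost, while the averaged call was kept (adjusted p = 0.013).

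The 4 cyclases did not pass the test for glucose. Adcy6 (ENSMUSG00000022994, minus strand, mm10 chr15:98589973-98610076), a cyclase inhibited by calcium, had normalised counts between 3301 and 4078 over the 12 libraries and an averaged log2 fold change of 0.041 (95% confidence interval -0.061 to 0.14). Adcy9 (ENSMUSG00000005580, minus strand, mm10 chr16:4287529-4420498), a widely expressed isoform that responds poorly to forskolin, came closest. In low glucose its normalised counts were 2368, 2346 and 2323 with vehicle and 2273, 2275 and 2423 with TMAO. In high glucose they were 2261, 2137 and 2231 with vehicle and 1864, 2345 and 2128 with TMAO. The vehicle libraries did not overlap between glucose levels, whereas the TMAO libraries did because of high-glucose replicate 2. The averaged log2 fold change of Adcy9 was -0.11 (SE 0.041, adjusted p = 0.102), and without that library it was -0.15 (adjusted p = 0.0134). Without replicate 1 of high glucose with TMAO it was -0.068 (adjusted p = 0.315). Adcy9 was called in edgeR on all 12 libraries without the filter on low counts (adjusted p = 0.0368). Adcy8 (ENSMUSG00000022376, minus strand, mm10 chr15:64697084-64922296), which calcium and calmodulin stimulate, had only 29 to 63 counts per library. Its averaged log2 fold change was -0.15 with an interval of -0.48 to 0.18, and -0.026 without replicate 1 of low glucose with vehicle. Adcy5 (ENSMUSG00000022840, plus strand, mm10 chr16:35154877-35305737), another cyclase inhibited by calcium, had 6 to 24 counts per library and an interval of -0.51 to 0.58, so that changes of the size seen for Pde10a were not detectable for either gene at this depth.

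Of the phosphodiesterases, 3 were not called for glucose. Pde1c (ENSMUSG00000004347, minus strand, mm10 chr6:56069804-56569103), which calcium and calmodulin activate, had normalised counts between 7905 and 8917 and an averaged log2 fold change of -0.0095 (95% confidence interval -0.079 to 0.060). Pde3b (ENSMUSG00000030671, plus strand, mm10 chr7:114415281-114539251), the cGMP-inhibited isoform that lowers cAMP in β cells and adipocytes, lay between 2402 and 2764 normalised counts, with a log2 fold change of -0.055 (95% confidence interval -0.13 to 0.019). For both genes the intervals end well short of the change in Pde4b. Pde8b (ENSMUSG00000021684, minus strand, mm10 chr13:95024454-95250336), a cAMP-specific isoform insensitive to the inhibitor IBMX, had 30 to 57 counts per library and an interval of -0.24 to 0.41. Its exons share 447 bases with the antisense gene Gm48420 (mean count 5.08, against 40.1 for Pde8b), and the strand setting of the counting is not given in the sources used here. Adcy6 overlaps the antisense gene Gm29331, which had no counts.

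**Figure D2:**
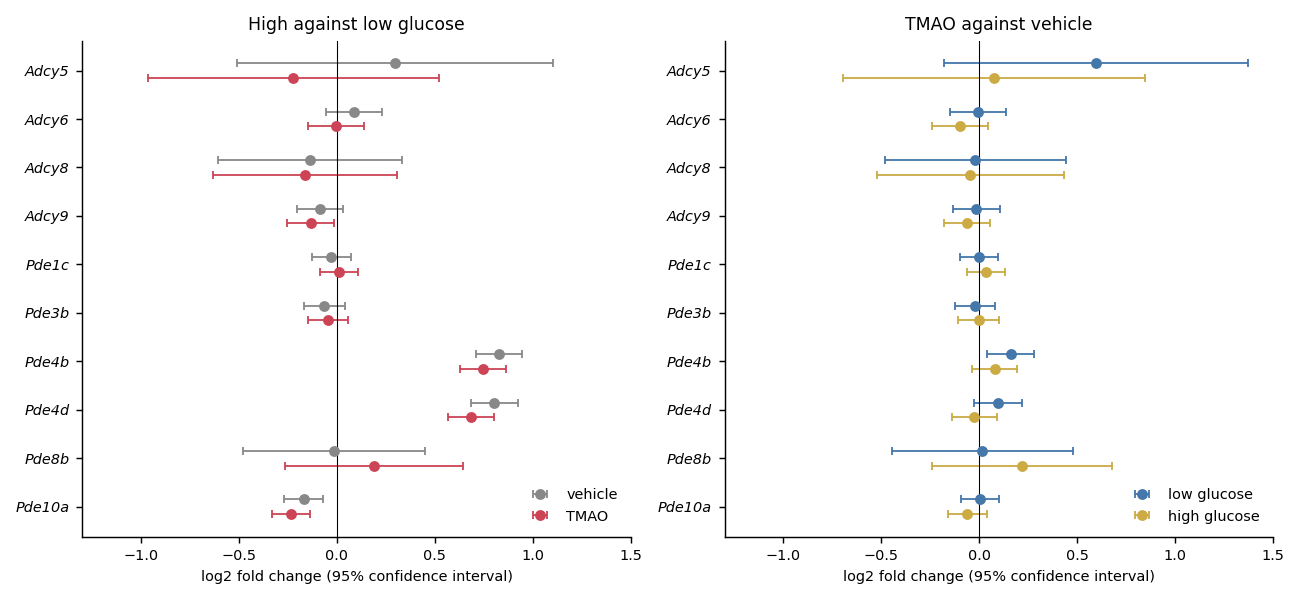
Log2 fold changes (x axes) of the 10 members with 95% confidence intervals, for high against low glucose with vehicle or TMAO (left) and for TMAO against vehicle at low or high glucose (right). For glucose the intervals of Pde4b, Pde4d and Pde10a leave out 0 under both treatments and that of Adcy9 does so with TMAO, while for TMAO only that of Pde4b at low glucose does so among the 10 members.

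Because the phosphodiesterase family is large, the shift was also described against the summed FPKM of its 21 genes for catalytic subunits. Pde4b and Pde4d together made up 10.9 ± 0.377% of that sum in low glucose with vehicle (SD, n = 3) and 18.5 ± 0.919% in high glucose with vehicle. With TMAO the share lay between 11.9% and 12.1% in the 3 low-glucose libraries and was 18.8 ± 0.901% in high glucose. The sum itself was 86.7 ± 1.81 FPKM in low and 89.9 ± 2.35 FPKM in high glucose with vehicle, and 87.0 ± 1.07 and 91.2 ± 3.04 FPKM with TMAO. Scaled to the longest transcript, Pde4b passed from rank 6 among the members at low glucose (15.5 ± 0.600 FPKM with vehicle) to rank 3 at high glucose (27.5 ± 2.25 FPKM), whereas on the deposited scale it stayed at rank 6. The share of Pde4b and Pde4d was not recomputed per longest transcript. Their deposited lengths exceed that transcript 2.45-fold and 2.85-fold, against 1.39-fold to 2.29-fold for the other member phosphodiesterases, so the share depends on the length used. The summed FPKM of the 10 cyclase genes was 62.9 ± 1.83 in low and 63.7 ± 2.94 in high glucose with vehicle. Adcy6 held 44.6% to 46.7% of it and Adcy9 35.4% to 38.1%, as means of the 4 conditions. Outside the members, Adcy7 (5.18 FPKM over the 12 libraries), Adcy2 (3.51 FPKM) and Adcy1 (1.58 FPKM) were the cyclases with the next highest levels, and Pde8a (13.0 FPKM) and Pde7a (4.86 FPKM) the phosphodiesterases. Pde6d reached 22.6 FPKM, but it encodes a prenyl-binding subunit and was left out of the sum.

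**Figure D3:**
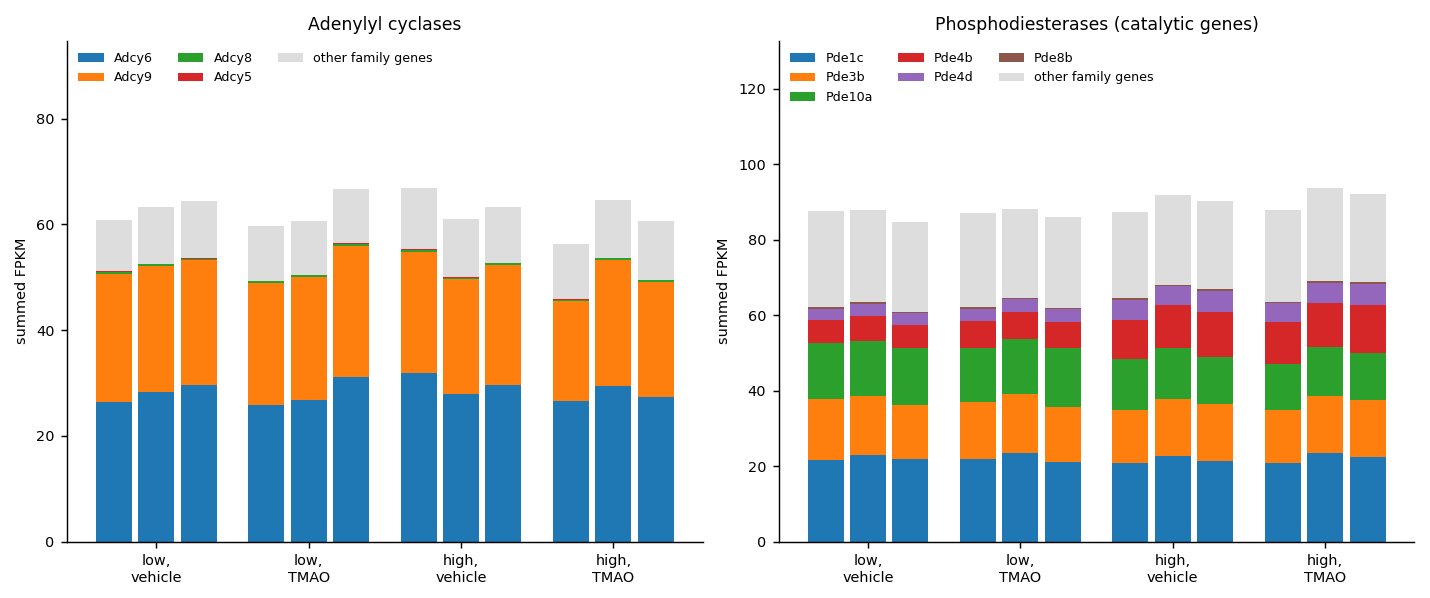
Summed FPKM (y axes, starting at 0) of the adenylyl cyclase genes and of the catalytic phosphodiesterase genes; each bar is 1 library, 3 per condition, and colours show the members. The bars for Pde4b and Pde4d widen at high glucose, from 10.9% to 18.5% of the phosphodiesterase sum with vehicle, while the cyclase bars stay near 60.5 to 63.7 FPKM on average.

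The comparison of TMAO with vehicle asked whether the compound alters these genes at a fixed glucose level. No member was called in edgeR at low glucose, at high glucose or averaged over glucose (0 of 10 each, against 0.00616%, 0% and 0% of all tested genes), nor with DESeq2 or limma. At an unadjusted p under 0.05, edgeR gave 1 member at low glucose, 0 at high glucose and 1 on average, where 2.2%, 5.35% and 3.62% of all tested genes had such a p. The member was Pde4b in both cases. At low glucose the 3 TMAO libraries (1401 to 1423 normalised counts) were all above the 3 vehicle libraries (1211 to 1309), and 6.36% of tested genes had groups that did not overlap there. The log2 difference was 0.16 (95% confidence interval 0.042 to 0.28, unadjusted p = 0.00978, adjusted p = 1.00 in edgeR). At high glucose the treatments overlapped and the difference was 0.079 (95% confidence interval -0.034 to 0.19, adjusted p = 0.927), or 0.020 without vehicle replicate 1 and 0.13 without vehicle replicate 3. The average over glucose was 0.12 (adjusted p = 1.00). Pde4d differed by 0.095 (95% confidence interval -0.027 to 0.22) at low and by -0.024 (95% confidence interval -0.14 to 0.091) at high glucose. Pde10a differed by 0.0048 (95% confidence interval -0.093 to 0.10) and -0.060 (95% confidence interval -0.16 to 0.038).

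Among the cyclases, the TMAO difference at high glucose was -0.098 for Adcy6 (95% confidence interval -0.24 to 0.046) and -0.062 for Adcy9 (95% confidence interval -0.18 to 0.057). At low glucose it was -0.0069 and -0.014. The intervals for these abundant isoforms leave out a change as large as the glucose response of Pde4b. Adcy5 differed by 0.60 at low glucose on 14, 6 and 17 counts with vehicle and 13, 24 and 20 with TMAO, with an interval of -0.18 to 1.4. Without vehicle replicate 2 that difference was 0.26, and without vehicle replicate 3 it was 0.91. Pde8b differed by 0.22 at high glucose with an interval of -0.24 to 0.68, and by 0.056 without vehicle replicate 2 or 0.37 without TMAO replicate 1. For Pde1c and Pde3b the differences lay between -0.021 and 0.036 at both glucose levels.

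Whether TMAO changed the glucose response itself was tested as the interaction. It called 0 of the 10 members and 0% of all tested genes in edgeR, with 0 members at an unadjusted p under 0.05 (3.36% of all tested genes) and 0 members called by DESeq2 or limma. The log2 glucose response with TMAO minus that with vehicle was -0.083 for Pde4b (95% confidence interval -0.25 to 0.083) and -0.12 for Pde4d (95% confidence interval -0.29 to 0.049). For Pde10a it was -0.065 (95% confidence interval -0.20 to 0.073). The adjusted p was 1.00 for each of the 3 genes in edgeR.

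The other genes of the pathway were described for the glucose difference averaged over treatments, for which 8.19% of all tested genes were called. None of the 4 other cyclases tested was called in edgeR, nor by DESeq2 or limma, and 1 of them, Adcy7, had an unadjusted p under 0.05 in edgeR (log2 fold change 0.10, unadjusted p = 0.0348, adjusted p = 0.200). Of the 11 other phosphodiesterases tested, Pde4c, a further cAMP-specific PDE4 gene, rose by 0.87 (SE 0.26, adjusted p = 0.0359), at a mean of only 0.163 FPKM. That call was lost without any 1 of 8 of the 12 libraries and with DESeq2 or limma. Of the 8 genes tested in the list of Gs-coupled receptors, Adora2a, an adenosine receptor, rose by 0.51 (SE 0.086, adjusted p = 0.000121). That list also holds Ffar1, a fatty acid receptor that couples mainly to Gq. Vipr2, a receptor for VIP and PACAP named after its values were seen, had a log2 fold change of 0.23 (adjusted p = 0.0608). It was called without the filter on low counts or with replicate number as a block. Of the 9 G protein genes, Gnaz, an inhibitory α subunit, fell by 0.14 (adjusted p = 0.0313), a call lost with limma and in 8 of 12 fits without 1 library. Of the 12 A-kinase anchoring proteins, Akap13 fell by 0.22 (SE 0.036, adjusted p = 6.36e-05). No gene was called among the 9 for protein kinase A and its inhibitors, the 2 Epac and Popeye effectors, the 7 for calmodulin and calcineurin and the 4 for cGMP synthesis. DESeq2 and limma called none of them either. At an unadjusted p under 0.05, which 20.1% of all tested genes had, edgeR gave 4 of the 8 genes in the receptor list. It also gave 3 of the 11 other phosphodiesterases, 2 of the 12 A-kinase anchoring proteins, 1 of the 9 G protein genes and 1 of the 4 other cyclases. It gave 0 genes for protein kinase A, Epac and Popeye effectors, calmodulin and calcineurin, and cGMP synthesis, or 1 of the 7 for calmodulin and calcineurin without the filter on low counts. Those in the receptor list were Adora2a, Vipr2, Ffar1 (log2 fold change 0.061) and Glp1r, of which only Glp1r was lower at high glucose (-0.076).

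Of the transcripts listed as responsive to cAMP, 14 of 14 were called higher at high glucose, with a median log2 fold change of 1.80 beside 0.0011 over all tested genes. Sik1, a kinase that restrains CREB coactivators, rose by 3.78 (SE 0.057). The nuclear receptor Nr4a1 rose by 3.04 (SE 0.10), the AP-1 subunit Fos by 2.69 (SE 0.096) and Nr4a3 by 2.50 (SE 0.14). Cartpt, named after its values were seen as the gene with the smallest rise (log2 fold change 0.30), was not called by limma, which left 13 of 14, nor by edgeR with vehicle alone (adjusted p = 0.0581). This list was written with earlier results of these libraries known, so its direction is not independent evidence. Many of its genes also respond to calcium and to MAP kinase signals. For TMAO at low glucose, edgeR called 1 gene of all these lists, against 0.00616% of all tested genes. It was the zinc finger factor Egr1 (log2 fold change 0.52, SE 0.075, adjusted p = 0.00207). How this call depends on the tool or on single libraries was not examined. Egr1 differed by 0.019 (adjusted p = 0.987) at high glucose and by 0.27 (adjusted p = 0.0609) on average, and its interaction of -0.50 did not pass the test either (adjusted p = 0.188).

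**Figure D4:**
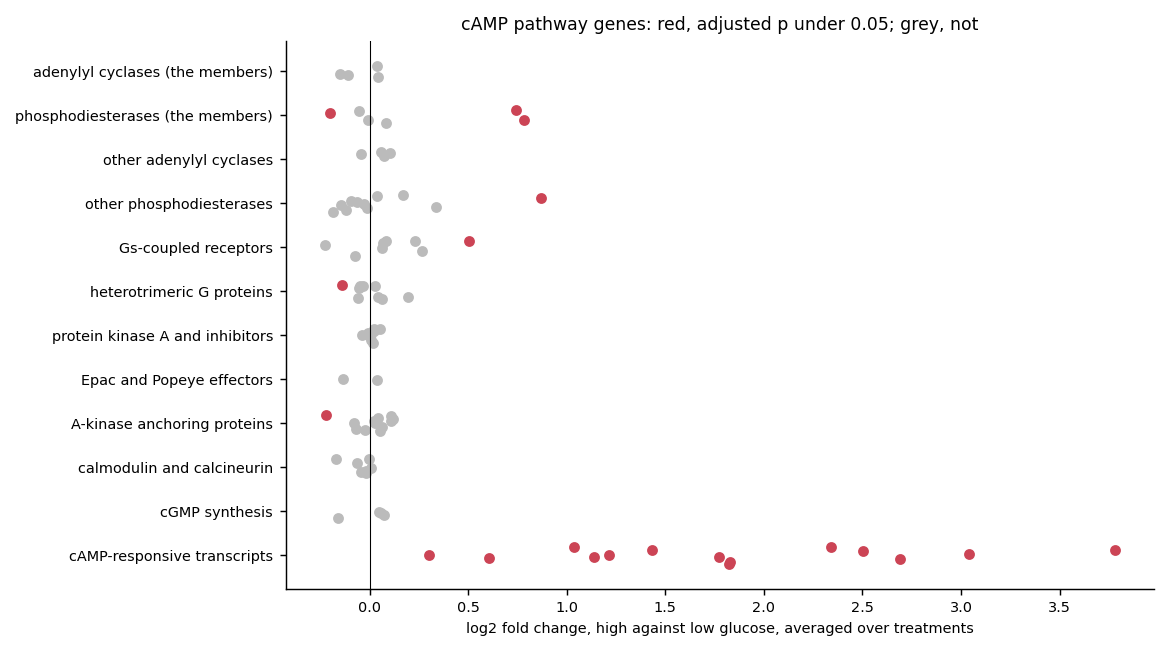
Log2 fold change at high against low glucose, averaged over treatments (x axis), of each tested gene in 12 lists of the cAMP pathway (rows, with vertical scatter only for legibility); red marks an adjusted p under 0.05 in edgeR. Among the members Pde4b, Pde4d and Pde10a are red, and the 14 transcripts listed as responsive to cAMP are all red and to the right of 0.

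Across the 12 libraries, log2 CPM of Pde4b and Pde4d had a Pearson correlation of 0.985, and Pde4b and Pde10a one of -0.91. These values describe libraries that fall into a low-glucose and a high-glucose group and share that contrast. Among 12309 genes with a mean of at least 50 counts, the patterns most like Pde4b were those of Tgif1 (0.992), Dffb (0.988) and Klf4 (0.988). For Pde4d they were Stk35 (0.997), Dusp4 (0.994) and Dusp5 (0.994), and for Pde10a Tef (0.960), Irf1 (0.959) and Tuba8 (0.946). All 6 genes nearest to the PDE4 pair had higher levels at high glucose, by log2 fold changes between 0.72 and 1.40.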

How the data were processed

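RNA-seq of 12 MIN6 libraries, 3 in each of 4 conditions, was analysed, and conditions and replicate numbers came from the labels. Per the labels, RNA was extracted with TRIzol and made into NEBNext Ultra libraries. The study's methods add poly-T selection and paired-end sequencing. The submitters' processing notes name HISAT2 2.0.5, featureCounts 1.5.0-p3, DESeq2 1.16.1 and mm10, and the strand setting is not given in the sources used here. The authors deposited raw counts of fragments per gene without normalization, and FPKM values made from these counts, gene length and a library total. That total and the summed counts of a library were no more than 1.37% apart. The deposited tables also hold each gene's position and length.

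Counts were tested with edgeR 4.0.16 in R 4.3.3 (filterByExpr with a minimum count of 10, TMM, robust quasi-likelihood F test) on all 12 libraries, with 1 mean per condition. The 7 contrasts were glucose with vehicle, glucose with TMAO, TMAO at each glucose level, the average of each and the interaction. P-values were adjusted by the Benjamini-Hochberg method over all 16222 tested genes, and genes were called under 0.05. The standard error is the log2 fold change divided by the square root of F. Normalised counts are counts scaled by TMM library sizes, and correlations used log2 CPM with a prior count of 2. Replicates had a biological coefficient of variation of 5.34%. The members and lists were chosen with earlier results of these data known. Named genes were all members, the genes called in each pathway list (the 4 largest changes where more were called), the most abundant other family genes and the 3 genes most correlated with each called member. Cartpt, Egr1, Vipr2, Ffar1 and Glp1r fall outside that rule and were named after their values were seen. The cell type markers given with fold changes, Nkx6-1, Cd68 and Gcg, fall outside it too. FPKM of genes compared levels only, and fold changes from limma 3.58.1 are on the log2(FPKM + 1) or log2(FPKM + 0.1) scale, which understates changes of low genes. Positions of 9 of the 10 members equal GENCODE M21. The alternatives were DESeq2 size factors, DESeq2 1.42.0 with its Wald test, no filter, limma on FPKM, the replicate block, only the 6 libraries of a comparison, and leaving out each library. The scaling to the longest transcript and the choice of phosphodiesterase genes in the sum were made after the data were seen. Counts were simulated for glucose with vehicle (16019 genes tested), with changes put only into genes with a mean of at least 50 counts. The test recovered 18 of 50 genes changed 1.2-fold, 45 of 50 changed 1.5-fold, 47 of 50 changed 1.7-fold and 49 of 50 changed 2-fold. Of its 175 calls, 16 were of unchanged genes. These rates do not cover Adcy5, Adcy8 and Pde8b, whose mean counts lay under that level. Figures were drawn with matplotlib 3.10.9.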

Additional observations from a re-analysis of the deposited data

How the results depend on the processing

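The count of called members stayed within 1.5 times of the reported one in every alternative run: 2 to 3 for glucose with vehicle, 2 to 4 for glucose with TMAO, 3 to 4 on average, and 0 for each TMAO comparison and the interaction. Leaving out each library gave 2 to 3, 3 to 4 and 3 to 4 for the glucose comparisons and 0 for the others. The added member was Adcy9, without a filter on low counts (log2 fold change -0.12, adjusted p = 0.0368) or without replicate 2 of high glucose with TMAO. Pde4b and Pde4d were called for glucose in all alternatives, with log2 fold changes of at least 0.67 and 0.55. The replicate numbers were not taken to pair the libraries: deviations of same-numbered libraries correlated at 0.033 on average (-0.038 to 0.21), and 10 of 12 libraries correlated best with their own number, which is a hint from the data. With the replicate block the counts of called members were 3, 3 and 3 for glucose and 0 for TMAO at low and high glucose, for the TMAO average and for the interaction, no member's call changed, Vipr2 joined Adora2a among the called Gs-coupled receptors, 1 of the 7 calmodulin and calcineurin genes had an unadjusted p under 0.05, and the calls over all genes for glucose with vehicle went from 536 to 717. Over all genes, calls for glucose with vehicle fell to 235 or 252, for glucose with TMAO to 218 or 230 and on average to 682 or 726 with limma, which tested 30981 genes. Differences near 0 changed sign. Adcy8 for TMAO at low glucose became 0.00057 with log2(FPKM + 0.1). Without 1 library, log2 fold changes for averaged glucose ran from -0.13 to 0.19 (Adcy5) and from -0.031 to 0.015 (Pde1c). For TMAO at high glucose they ran from -0.12 to 0.30 (Adcy5), -0.20 to 0.12 (Adcy8), -0.15 to 0.021 (Adcy9), -0.0038 to 0.084 (Pde1c), -0.035 to 0.032 (Pde3b) and -0.063 to 0.0021 (Pde4d). For TMAO at low glucose they ran from -0.095 to 0.048 (Adcy6), -0.17 to 0.23 (Adcy8), -0.045 to 0.0029 (Adcy9), -0.047 to 0.029 (Pde1c), -0.073 to 0.013 (Pde3b), -0.11 to 0.091 (Pde8b) and -0.032 to 0.034 (Pde10a). Other values that were not called kept their sign but moved by over 1.5 times without 1 library. For averaged glucose these ran from 0.014 to 0.083 (Adcy6), -0.23 to -0.026 (Adcy8), -0.15 to -0.068 (Adcy9), -0.082 to -0.036 (Pde3b) and 0.014 to 0.17 (Pde8b). For TMAO they ran from -0.14 to -0.045 (Adcy6), 0.020 to 0.13 (Pde4b), 0.056 to 0.37 (Pde8b) and -0.10 to -0.034 (Pde10a) at high glucose, and from 0.26 to 0.91 (Adcy5) and 0.062 to 0.14 (Pde4d) at low glucose, where Adcy5 was 0.062 with log2(FPKM + 1). Counting the Pde6 subunits that are not catalytic, a setting added after the data were seen, Pde4b and Pde4d held 8.63% and 14.8% of the phosphodiesterase sum with vehicle. Depth limits Adcy5, Adcy8 and Pde8b.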
